A study of Capra hircus with 9 samples.

Results

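Transcripts of the conceptus, the embryo together with its membranes, were looked for in uterine samples of the goat. A table row was taken as a member when its description names a trophoblast Kunitz domain protein, a pregnancy-associated glycoprotein, interferon tau or a prolactin-related protein. This gave 93 of the 25671 rows: 7 Kunitz rows, 65 glycoprotein rows, 7 interferon tau rows and 14 prolactin-related rows. Of these, 35 had at least 1 read in some library and 58 had 0 reads in all 9. Together the members held 11886 of 89995209 reads, and their counts are given per library.

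The samples are from Liaoning Cashmere goats, a fibre breed, at day 6, day 16 and day 19, with 3 libraries of polyadenylated RNA per day. All groups share the breed and differ in the labels by day alone; the labels call the days peri-implantation and do not say from which event they are counted, whether the animals carried a conceptus, or whether the 3 libraries of a day came from separate animals. The p-values therefore measure the spread between these libraries, which may be technical. The tissue is labelled uterus, the series title speaks of endometrial epithelium and the collection protocol of testis.

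The trophoblast is the outer cell layer of the conceptus and later forms the fetal side of the placenta. In ruminants its mononucleate cells secrete interferon tau, which signals pregnancy to the mother and keeps the corpus luteum alive, and its binucleate cells are a main source of pregnancy-associated glycoproteins and prolactin-related proteins. The glycoproteins belong to the pepsin family of aspartic proteases, and many of them are thought to lack enzyme activity. Trophoblast Kunitz domain proteins carry a domain of the kind found in pancreatic trypsin inhibitor and are known from the trophoblast of cattle, sheep and their relatives. All 4 classes are multigene families of close copies.

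The libraries held 8712751 to 11074693 counts, and 18530 to 19243 rows were detected in each. Genes of uterine tissue were read at unlike levels over the 9 libraries. The epithelial gene EPCAM ranged from 186 to 423 TMM-normalized CPM (counts scaled to a common library total). The stromal collagen gene COL3A1 ranged from 4360 to 10400 CPM and the oestrogen receptor gene ESR1 from 111 to 804 CPM. Lower were the progesterone receptor gene PGR, at 15.1 to 38.0 CPM, and the keratin gene KRT18, at 24.1 to 86.5 CPM. Of 3 testis germ cell genes, DAZL had 1 read in all, SYCP3 had 0 and DDX4 had 76, with reads in all 9 libraries: 30 at day 6, 40 at day 16 and 6 at day 19. Day 19 replicate 1 stood apart. Its Spearman correlation over rows with the other day 19 libraries was 0.894 to 0.897, against 0.983 between those 2 and 0.973 to 0.985 within the other days. Its share of reads on ribosomal protein genes was 2.4%, against 6.59% and 5.62% in day 19 replicates 2 and 3 and 3.63% to 4.33% at the other days. The part of these differences in any value of day 19 replicate 1 was not tested.

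The 4 classes differed widely in level. Kunitz rows held 11713 reads, glycoprotein rows 115, prolactin-related rows 57 and interferon tau rows 1. Reads per class are sums over a different number of rows of unknown length, so they rank the classes by reads and not by molecules. In bulk tissue, fewer cells of a type and less RNA per cell cannot be told apart, and this holds for all values given here.

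**Figure D1:**
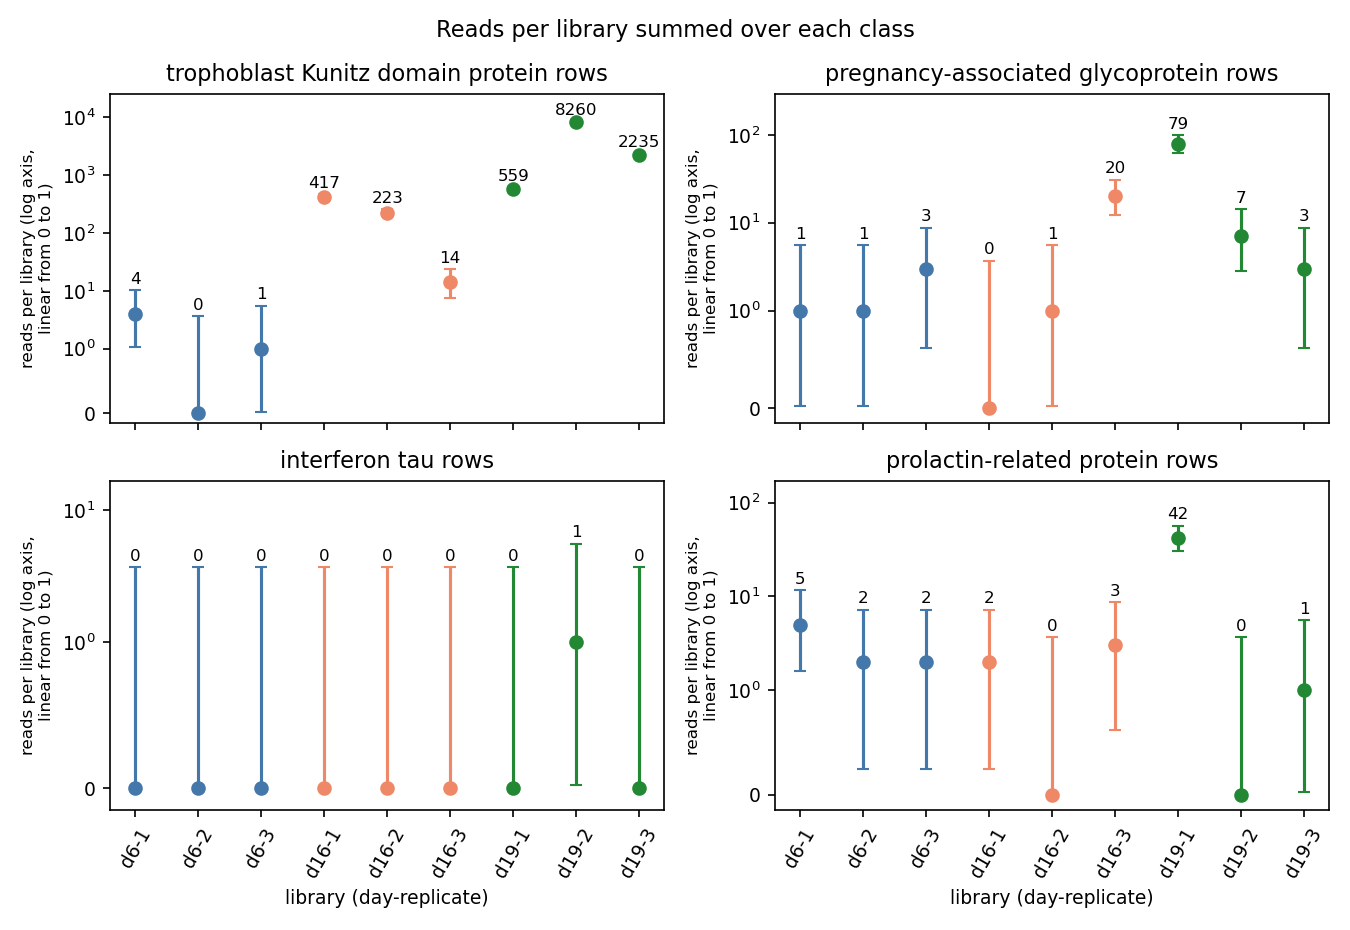
Reads per library summed over each of the 4 classes, on a log axis that is linear from 0 to 1, with the library (day and replicate) on the other axis. Points are counts, printed above them, and bars are exact Poisson 95% intervals; Kunitz reads reach 8260 in day 19 replicate 2, glycoprotein and prolactin-related reads peak in day 19 replicate 1, and interferon tau has 1 read.

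Kunitz rows were nearly silent at day 6 and far higher later. Their sums were 4, 0 and 1 reads in day 6 replicates 1, 2 and 3. They were 417, 223 and 14 reads at day 16, and 559, 8260 and 2235 at day 19, in the same order of replicates. Every day 16 library was above every day 6 library and every day 19 library above every day 16 library, but the spread within a day was large. In CPM of the library total, the class averaged 0.171 ± 0.213 on day 6, then 23.7 ± 21.4 on day 16 and 336 ± 363 on day 19 (mean ± SD of 3 libraries). The exact 95% Poisson interval of the 14 reads of day 16 replicate 3 was 7.65 to 23.5, so that library lay below the other day 16 libraries beyond counting error. Such intervals, and the floor of 3 counts used below for a count of 0, cover counting error only. Day 19 held 94.4% of all Kunitz reads, and day 19 replicate 2 alone held 74.7% of those of its day. Without it, day 19 had 2794 reads and a mean of 131 CPM, and without replicate 1 the day 16 mean was 13.5 CPM.

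A pair of rows carried this signal. LOC102177175 and LOC102188515, both described as trophoblast Kunitz domain protein 1-like, held 11684 of the 11713 reads, or 99.8%. They were also the 2 of 93 members that passed the low-count filter of the test across all genes. A row that is near 0 at day 6 passes that filter only through its later libraries, so it had to differ, and the number that passed carries no weight. The authors' homology column names TFPI for the first and SPINT2 for the second, human genes for Kunitz-type inhibitors. The other 5 Kunitz rows had 1 to 13 reads each, 29 in all. LOC102188237 led them with 9 reads in day 19 replicate 2 and 4 in replicate 3. None of these 5 had a read at day 6. Reads of near-identical copies can be split or misplaced by the counting, so the division among rows is uncertain.

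LOC102177175 had 4, 0 and 1 reads in the day 6 libraries, 402, 182 and 13 in the day 16 libraries, and 271, 5180 and 1371 in the day 19 libraries. Day 6 did not overlap with either later day, while day 19 replicate 1 lay between the day 16 libraries. Its level averaged 0.156 ± 0.192 TMM-normalized CPM on day 6, then 21.4 ± 20.6 on day 16 and 229 ± 256 on day 19 (mean ± SD of 3 libraries). Day 16 exceeded day 6 by a log2 fold change of 6.94 (SE 1.78), or 122-fold (edgeR quasi-likelihood test, Benjamini-Hochberg adjusted p = 0.0402). Of the 16098 genes tested in this comparison, 5.12% were higher, 3.74% lower and 8.86% called in either direction. Since the filter kept 2 members through their later libraries, the call of 1 of them is not to be read against these shares; with no low-count filter it was 1 of 35 members, against 1374 of 21550 genes. The call was narrow: a replicate block gave an adjusted p of 0.0704 in edgeR, and leaving out 1 library gave 0.0184 to 0.148 and lost the call in 7 of 9 fits, while DESeq2 gave 0.000201. It was lost without any of the 3 day 6 libraries (0.11, 0.14 and 0.148 for replicates 1, 2 and 3), without day 16 replicate 1 (0.114) or 2 (0.0894) and without day 19 replicate 1 (0.0543) or 3 (0.0553). The log2 fold change was 8.42 without day 6 replicate 1 and 5.96 without day 16 replicate 1.

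LOC102188515 had 0 reads in all 3 day 6 libraries. It had 10, 40 and 1 at day 16 and 288, 3062 and 859 at day 19. The 3 days did not overlap, and the lowest library of each later day differed: replicate 3 at day 16 and replicate 1 at day 19. Its level averaged 1.9 ± 2.35 TMM-normalized CPM on day 16 and 141 ± 145 on day 19 (mean ± SD of 3 libraries). Against the floor of 3 counts over the day 6 libraries, it was at least 17.4-fold higher at day 16 (at least 5.39-fold without day 16 replicate 2, at least 26.7-fold without replicate 3, and at least 11.5-fold without day 6 replicate 1 or 3). Its day 16 difference from day 6 did not pass in edgeR (quasi-likelihood, Benjamini-Hochberg adjusted p = 0.201), while DESeq2 gave 0.00856.

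Neither row passed in edgeR from day 16 to day 19, a comparison in which 0.516% of the genes tested rose, 0.683% fell and 1.2% passed in either direction. LOC102177175 was 10.7-fold higher by its means (log2 fold change 3.43, SE 1.18) with a quasi-likelihood, Benjamini-Hochberg adjusted p of 0.135. LOC102188515 was 76.8-fold higher (log2 fold change 6.26, SE 1.26) with an adjusted p of 0.0602 from the same edgeR test. Both had an unadjusted p under 0.05, at 0.0168 and 0.00129 (edgeR quasi-likelihood), and DESeq2 called LOC102188515 alone, with adjusted p of 0.103 and 0.00342. Without day 19 replicate 1 both passed in edgeR, at 0.0362 and 0.0111. Those edgeR fits are of all genes, and without that library 7331 of 16407 genes passed, against 193 of 16098 with it. Leaving out 1 library moved the log2 fold change between 2.02 (without day 19 replicate 2) and 4.4 (without day 16 replicate 1) for LOC102177175, and between 5.02 (without day 19 replicate 2) and 7.98 (without day 16 replicate 2) for LOC102188515.

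Between day 19 and day 6, both rows rose, in a comparison where 12.7% of the genes tested rose, 10.2% fell and 22.9% passed in either direction. The members tested were again those the filter kept; with no low-count filter, 2 of 35 members were called, against 3526 of 21550 genes. LOC102177175 rose 1320-fold (log2 fold change 10.36, SE 1.83; edgeR quasi-likelihood, Benjamini-Hochberg adjusted p = 0.00438). Its log2 fold change was 11.82 without day 6 replicate 1 and 8.95 without day 19 replicate 2. LOC102188515 rose at least 1260-fold (adjusted p = 0.00479 in the same edgeR fit), or at least 522-fold without day 19 replicate 2 and at least 837-fold without day 6 replicate 3. Each call held in all 9 fits that left out 1 library, with adjusted p of 0.00253 to 0.026 and 0.00503 to 0.0178 (edgeR quasi-likelihood). The comparisons of day 16 and of day 19 with day 6 share the day 6 libraries, so they are not independent of each other. The median log2 fold change of all genes tested was -0.0002 at day 16 against day 6, 0.0128 at day 19 against day 16 and 0.0225 at day 19 against day 6.

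The balance between the pair also differed between days. LOC102188515 made up 2.43% (exact 95% interval 1.17 to 4.42) of the reads of the 2 rows in day 16 replicate 1, 18.0% (13.2 to 23.7) in replicate 2 and 7.14% (0.181 to 33.9) in replicate 3. Its share at day 19 was 51.5% (47.3 to 55.7) in replicate 1, 37.2% (36.1 to 38.2) in replicate 2 and 38.5% (36.5 to 40.6) in replicate 3. All 3 day 19 shares were above all 3 day 16 shares, although the interval of day 16 replicate 3, from 14 reads, reaches up to 33.9%. Day 19 replicate 1, with 559 Kunitz reads, was close in total to day 16 replicate 1, with 417, and had the highest share where the latter had the lowest. This difference was noticed in these data and was not tested.

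**Figure D2:**
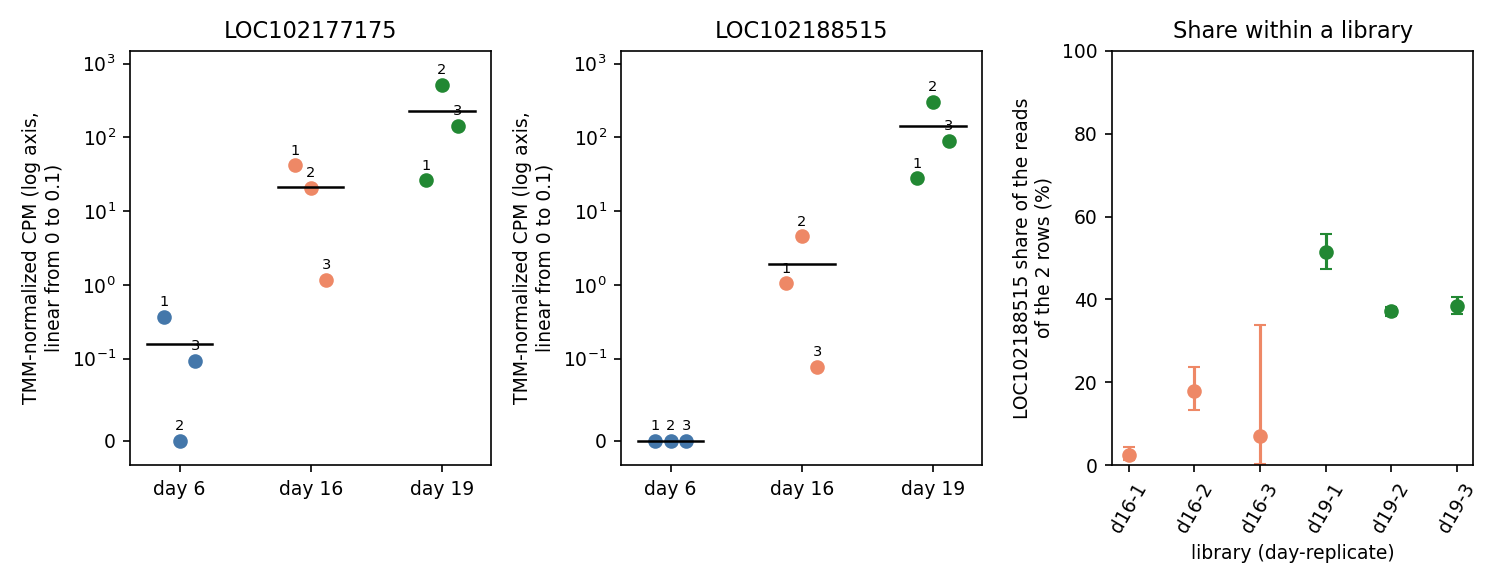
TMM-normalized CPM of LOC102177175 and LOC102188515 per library, on a log axis that is linear from 0 to 0.1 (points, numbered by replicate; horizontal bars are day means), and the share of LOC102188515 in the reads of both rows with exact 95% intervals. The means of both rows step up with the day, but LOC102177175 is lower in day 19 replicate 1 (26.3 CPM) than in day 16 replicate 1 (42.3 CPM). The share is 2.43% to 18.0% at day 16 and 37.2% to 51.5% at day 19.

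The 7 Kunitz rows form a cluster in the goat genome. All 7 matched the RefSeq gene table of assembly ARS1.2, which was used for gene order only since the build behind the counts is not given. They lie on 1 chromosome in a stretch of 8 genes whose remaining gene is a pseudogene of the zinc finger gene ZC3H15. LOC102188515 and LOC102177175 are direct neighbours at one end. Beyond them, after a transfer RNA gene, lies LOC102177641, a spleen trypsin inhibitor I-like gene with a Kunitz-type name of its own. It had 9, 5 and 13 reads at day 6, 32, 50 and 7 at day 16, and 14, 67 and 44 at day 19. It passed in no comparison, with edgeR quasi-likelihood, Benjamini-Hochberg adjusted p of 0.23 for day 16 against day 6, 0.75 for day 19 against day 16 and 0.0736 for day 19 against day 6. This neighbour was chosen for its place after its values had been seen. On the opposite flank, the colostrum trypsin inhibitor-like gene LOC102174856 had 0 reads in all libraries.

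**Figure D3:**
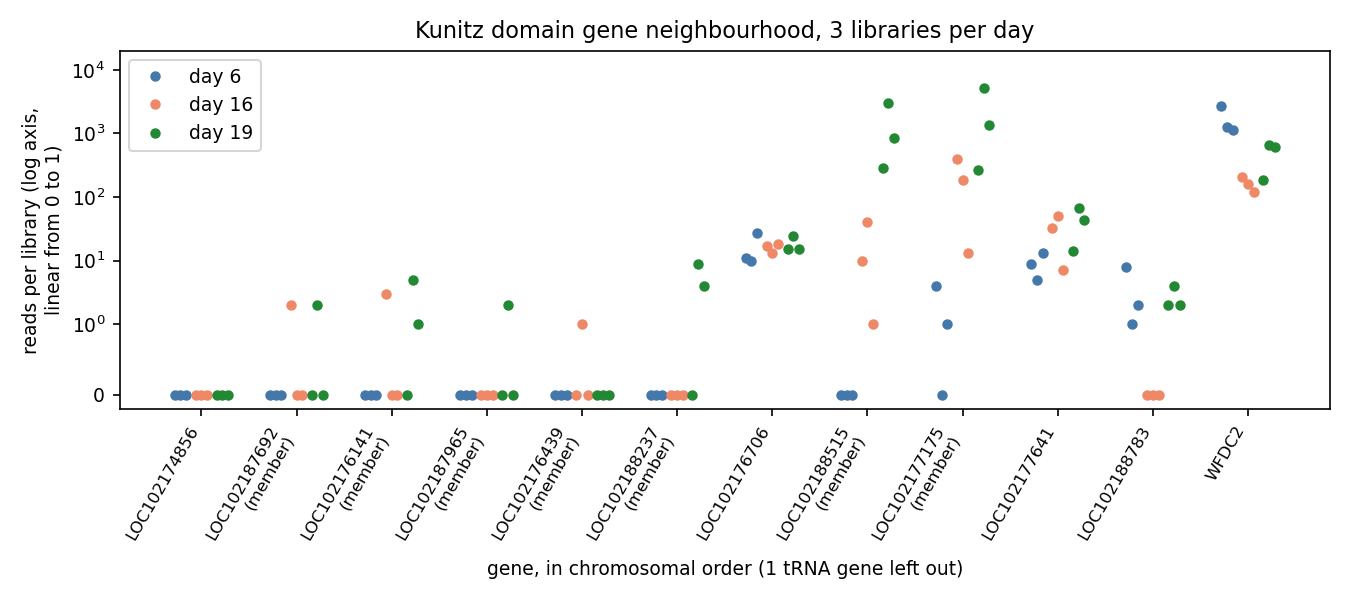
Reads per library (log axis, linear from 0 to 1) of the genes of the Kunitz cluster and its flanks in chromosomal order, with 3 points per day. LOC102188515 and LOC102177175 reach 3062 and 5180 reads at day 19, while the other member rows stay at 9 reads or fewer in every library.

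Pregnancy-associated glycoprotein rows gave few reads, and most came from 2 libraries. The sums were 1, 1 and 3 reads at day 6, 0, 1 and 20 at day 16, and 79, 7 and 3 at day 19. Day 19 replicate 1 held 88.8% of the reads of its day and day 16 replicate 3 held 95.2%, and without them the days had 10 reads and 1 read, with means of 0.457 and 0.0574 CPM. The day 16 mean was then below that of day 6. The exact Poisson 95% intervals of these libraries, 62.5 to 98.5 and 12.2 to 30.9 reads, did not reach those of the remaining libraries of their days. In CPM of the library total, the class averaged 0.171 ± 0.117 on day 6, then 0.684 ± 1.09 on day 16 and 2.77 ± 4.0 on day 19 (mean ± SD of 3 libraries). The SD thus exceeded the mean at both later days and the days overlapped.

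Of the 65 glycoprotein rows, 20 had reads and 45 had none. None passed the low-count filter, so none was tested in edgeR. LOC102178798, a pregnancy-associated glycoprotein 2-like gene, was the member with most reads: 3 in day 16 replicate 3, 20 in day 19 replicate 1 and 0 in the other 7 libraries. The next 2, LOC102169561 and LOC102168812, both 1-like, had 15 and 12 reads, all in day 19 replicate 1. The 50 rows named 1-like held 71 reads on 12 rows and the 7 rows named 2-like held 24 reads on 2 rows. The 6 rows with a glycoprotein number of their own held 19 reads on 5 rows, led by PAG12 with 8 reads over 4 libraries. Of the 24 glycoprotein rows of other types than mRNA, 1 had reads, LOC102191404 with 4 in day 16 replicate 3.

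The same rows recurred in part in both libraries. Reads lay on 11 rows in day 16 replicate 3 and on 13 rows in day 19 replicate 1, and 7 rows had reads in both, which is 63.6% of the first set and 53.8% of the second. These 2 libraries were picked for their many reads. The others held 5 glycoprotein reads at day 6, 1 at day 16 and 10 at day 19, so few rows could have reads there. Of the 17 rows with reads in either, 14 had none in any of the other 7 libraries. LOC102169089 was an exception: its 7 reads were spread over 5 libraries of all 3 days, with none in day 19 replicate 1. With so few reads per row and with copies this alike, which rows hold them is uncertain.

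In the ARS1.2 order, 58 of the 65 glycoprotein rows were matched, all on 1 chromosome in a stretch of 73 genes. That table lists 24 of the 58 as pseudogenes, of which 1 had reads here. Next to this cluster lies LOC102172792, a pepsin A-like gene of the same protease family. It went the opposite way: 118, 18 and 46 reads at day 6, 0, 5 and 10 at day 16, and 0, 5 and 1 at day 19. Between days 6 and 19 its log2 fold change was -4.76 (SE 1.14; edgeR quasi-likelihood, Benjamini-Hochberg adjusted p = 0.0166). The change was -3.91 without day 6 replicate 1 and -6.51 without day 19 replicate 2, and edgeR no longer called it with either day 6 replicate 1 or day 19 replicate 3 left out (adjusted p up to 0.0621). The gene was picked after its values had been seen.

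Prolactin-related rows had 5, 2 and 2 reads at day 6, 2, 0 and 3 at day 16, and 42, 0 and 1 at day 19. Day 19 replicate 1 held 97.7% of its day, with an exact Poisson 95% interval of 30.3 to 56.8 reads, and 1 read was left without it. No other library exceeded 5 reads, and day 6 was not below day 16. In CPM of the library total, the class averaged 0.309 ± 0.176, 0.167 ± 0.15 and 1.34 ± 2.24 for days 6, 16 and 19 (mean ± SD of 3 libraries). Without day 19 replicate 1 the day 19 mean was 0.0471 CPM, below both earlier days.

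Of the 14 prolactin-related rows, 7 had reads, and none passed the low-count filter. LOC102181085, a placental prolactin-related protein 3-like gene, had 34 reads in day 19 replicate 1, 2 in day 16 replicate 3 and 0 elsewhere, and thus appeared in the same 2 libraries as the leading glycoprotein. LOC102170569, which is 4-like, had 6 reads in day 19 replicate 1 and 1 in day 6 replicate 2. PRP1 differed from these. Its 8 reads were 2, 0 and 2 at day 6, 2, 0 and 1 at day 16, and 0, 0 and 1 at day 19, with no excess in day 19 replicate 1.

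Interferon tau had 1 read in the whole series, from Interferon tau BB8 (LOC100861164) in day 19 replicate 2, with an exact Poisson 95% interval of 0.0253 to 5.57. The other 6 rows had 0 reads in all libraries. A count of 0 allows up to 3 counts, which is 0.271 to 0.344 CPM in these libraries, so a lower level was not detectable at this depth. The 17 rows described as interferon alpha or omega, type I relatives picked after their values had been seen, had 3 reads on 1 row. Outside those rows, the epithelial interferon gene IFNE had 1, 23 and 8 reads over the libraries of days 6, 16 and 19. ISG15, a ubiquitin-like protein gene that type I interferons induce, had 53, 27 and 64 reads at day 6, 8469, 13366 and 5300 at day 16, and 20475, 26483 and 21637 at day 19. It was 207-fold higher at day 16 and 494-fold higher at day 19 than at day 6 (edgeR quasi-likelihood, Benjamini-Hochberg adjusted p = 0.00015 and 7.53e-05). High ISG15 and almost no interferon tau reads were thus measured in the same libraries.

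Glycoprotein and prolactin-related reads did not follow Kunitz reads within a day. At day 16 the library with most glycoprotein reads, replicate 3, had the fewest Kunitz reads, and at day 19 the same held for replicate 1. Glycoproteins made up 58.8% (exact 95% interval 40.7 to 75.4) of the joint glycoprotein and Kunitz reads in day 16 replicate 3. They made up 0.446% in replicate 2 and 0 of 417 in replicate 1, with an exact 95% upper limit of 0.881% for the latter. Their share was 12.4% (9.93 to 15.2) in day 19 replicate 1, 0.0847% (0.034 to 0.174) in replicate 2 and 0.134% (0.0277 to 0.391) in replicate 3. Prolactin-related reads made up 6.99% (5.08 to 9.33) of the joint prolactin-related and Kunitz reads in day 19 replicate 1. They made up 0 of 8260 in replicate 2, with an exact 95% upper limit of 0.0446%, and 0.0447% in replicate 3. Day 19 replicate 1 is the library that stood apart in its correlations and its ribosomal protein share, whereas day 16 replicate 3 did not, with a ribosomal protein share of 4.33% and correlations of 0.975 with the other day 16 libraries. The part of library differences in these shares was not tested.

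**Figure D4:**
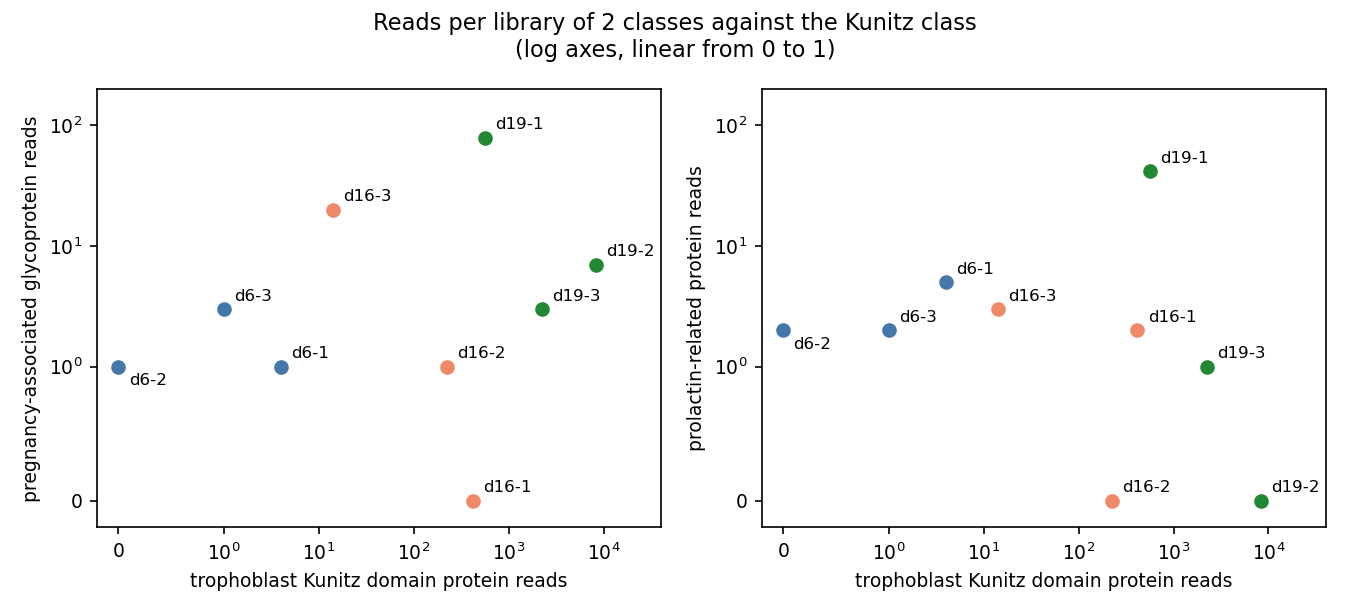
Reads per library of the glycoprotein class (left) and the prolactin-related class (right) against those of the Kunitz class, with log axes that are linear from 0 to 1 and 1 labelled point per library. Day 19 replicate 1 has the most glycoprotein (79) and prolactin-related (42) reads and the fewest Kunitz reads of its day (559), and day 16 replicate 3 has 20 glycoprotein and 14 Kunitz reads.

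Other genes of the conceptus were read from lists, since the classes alone rest on few rows. Of 10 transcription factor genes that define trophectoderm, the embryonic form of trophoblast, 8 had a row in the table and 4 were tested; CDX2 and ASCL2 had no row of that symbol. None of the 8 was at 0 over all libraries. Their summed level ran from 7.89 to 12.5 TMM-normalized CPM on day 6, from 15.1 to 25.3 on day 16 and from 15.7 to 29.2 on day 19, and its highest values were 29.2 in day 19 replicate 1 and 25.3 in day 16 replicate 2. TEAD4, a partner of YAP in trophectoderm that other tissues use too, was the 1 of 4 that rose (against 5.12% and 12.7% of all genes tested at days 16 and 19), 4.29-fold at day 16 and 4.95-fold at day 19 against day 6 (edgeR quasi-likelihood, Benjamini-Hochberg adjusted p = 0.0296 and 0.0109). Its day 16 call was lost in 5 of 9 fits without 1 library (any of day 6, or day 16 replicate 1 or 2; adjusted p up to 0.127) and its day 19 call in 2 (day 6 replicate 1 or 3; up to 0.0519). TEAD4 alone stood at 1.95 to 3.7 CPM on day 6, 6.66 to 17.1 on day 16 and 8.35 to 20.7 on day 19. It made up 20.7 of the 29.2 CPM of that sum in day 19 replicate 1 and 17.1 of the 25.3 CPM in day 16 replicate 2. On day 6 its part was 2.04 of 12.5 CPM in replicate 1. The higher sums of the later days are thus not to be read as a rise of the list as a set. The median log2 fold change of the 4 was 0.28 at day 16 against day 6, -0.35 at day 19 against day 16 and -0.065 at day 19 against day 6.

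The other factors of the list had fewer reads, and 4 of them were not tested. ELF5, a regulator of trophoblast stem cells that glandular epithelia also express, had 5, 4 and 0 reads at day 6, 1, 14 and 0 at day 16, and 8, 20 and 10 at day 19. GCM1, a factor of trophoblast differentiation, had 2, 3 and 10 reads over the libraries of days 6, 16 and 19, and 9 of the last 10 were in replicate 2. HAND1, a factor of trophoblast and extraembryonic mesoderm, had 1, 2 and 6 reads per day, and DLX3, a placental homeobox factor, had 14, 10 and 15. Of the tested factors that did not pass, TFAP2C had 108, 92 and 64 reads per day, EOMES 44, 35 and 22, and GATA3 63, 100 and 90. Day 19 thus held the most raw reads for ELF5, GCM1, HAND1, DLX3 and TEAD4 and not for TFAP2C, EOMES or GATA3. This order takes no account of depth, rests on 15 against 14 reads for DLX3, and includes 0 HAND1 reads in day 19 replicate 2.

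The wider trophoblast list had 22 of 33 genes in the table and 12 tested. Day 16 against day 6 had 3 higher and 0 lower, with a median log2 fold change of 0.285, and day 19 against day 6 had 3 higher and 1 lower, with a median of 0.35. Over all genes tested, 5.12% were higher and 3.74% lower in the first comparison, and 12.7% and 10.2% in the second. PLAC8, a gene named for its placental expression, already stood at 6.48 to 14.2 TMM-normalized CPM at day 6. It rose 7.23-fold and 11.9-fold from there (edgeR quasi-likelihood, Benjamini-Hochberg adjusted p = 0.00222 and 0.000527). ETS2, a transcription factor of broad expression, rose 2.23-fold and 2.18-fold (edgeR adjusted p = 0.0211 and 0.0132), and TEAD4 was the third. The day 16 call of ETS2 was lost without any 1 of the day 6 or day 16 libraries (adjusted p up to 0.0905) and its day 19 call without day 6 replicate 1 or 2 (up to 0.0537). PEG10, an imprinted gene needed for the placenta, fell by 1.37 on the log2 scale at day 19 (SE 0.43; edgeR quasi-likelihood, Benjamini-Hochberg adjusted p = 0.0468). The PEG10 call was lost in every fit without 1 library (adjusted p up to 0.144), except without day 19 replicate 1, where the log2 fold change was -2.09, and it was lost with a replicate block (0.0724). None of the 12 passed in edgeR between day 19 and day 16 (1 at an unadjusted p under 0.05, 0 in DESeq2), where their median was -0.11.

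Yolk sac and hypoblast genes, which mark the inner membrane of the conceptus and are also liver or epithelial genes, had 19 of 22 in the table and 7 tested. In edgeR none of the 7 passed at day 16 against day 6 (3 at an unadjusted p under 0.05, 1 in DESeq2). At day 19 against day 6, where 12.7% of all genes rose and 10.2% fell, AHSG and TTR rose and CUBN, an endocytic receptor gene, fell by 1.36 on the log2 scale (edgeR adjusted p = 0.0468 for CUBN). The call of CUBN was lost in 7 of 9 fits without 1 library, the exceptions being those without day 6 replicate 3 or day 19 replicate 1, and with a replicate block (edgeR adjusted p up to 0.152 and 0.0701). AHSG, the gene of the plasma protein fetuin-A, had 0 reads in all day 6 libraries, 14, 108 and 4 at day 16, and 25, 243 and 88 at day 19. It was at least 107-fold higher at day 19 than at day 6 (edgeR quasi-likelihood, Benjamini-Hochberg adjusted p = 0.0228), and its day 16 value of at least 42.9-fold did not pass (0.0846). With 0 reads at day 6, AHSG passed the low-count filter only through its later libraries, so its direction against day 6 was fixed. Its call is therefore not to be read against the share of all genes that rose. Replicate 2 held most AHSG reads of both days, and without it the bounds were at least 8.83-fold at day 16 and at least 51.5-fold at day 19. The day 19 call was lost without any 1 of the day 6 libraries (adjusted p up to 0.0623), and the bound was then at least 70.8-fold to 71.7-fold. TTR, which carries thyroid hormone and retinol, rose 7.86-fold at day 19 (adjusted p = 0.0179 in the same edgeR test), a call that was lost without any 1 of the day 6 libraries or day 19 replicate 2 (up to 0.0703). The other tested members did not pass. RBP4, APOA1, SOX17 and SERPINA1 had log2 fold changes of 0.69, 0.2, -0.98 and -1.19 at day 19 against day 6. The members not tested had at most 41 reads each in all. Among them, AFP had 1 read and ALB had 21, 3 and 1 over the libraries of days 6, 16 and 19. The median log2 fold change of the 7 was 0.62 at day 16 and 0.2 at day 19, both against day 6.

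**Figure D5:**
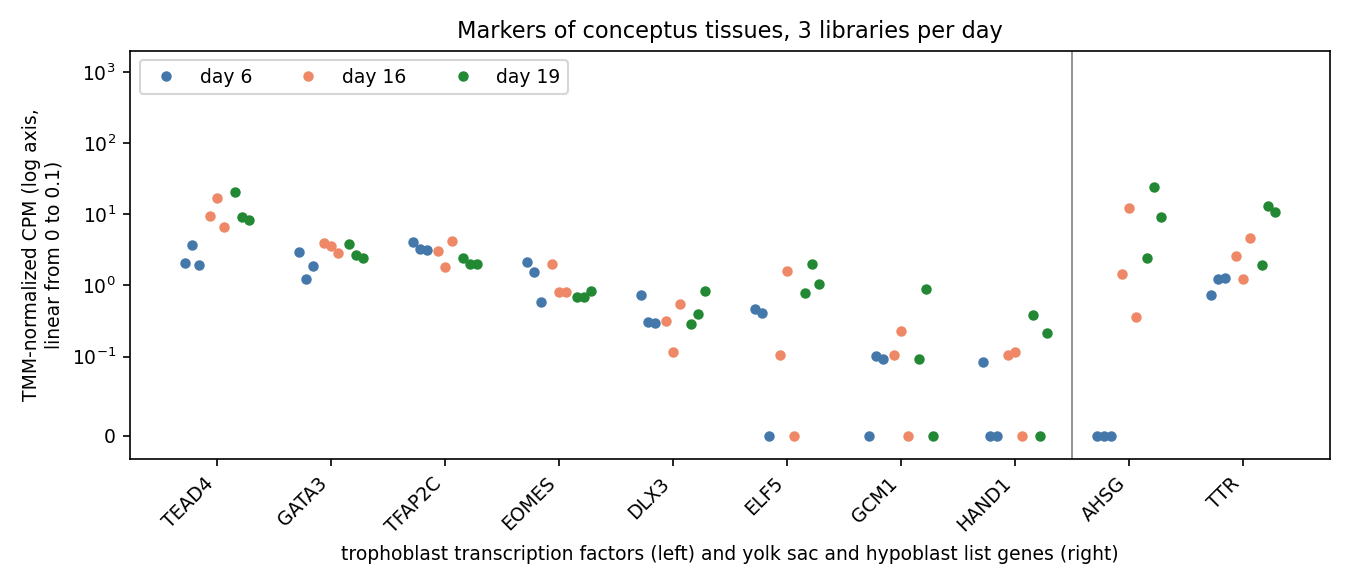
TMM-normalized CPM per library (log axis, linear from 0 to 0.1) of the 8 trophectoderm factors found and of AHSG and TTR, the yolk sac and hypoblast list members that rose, with 3 points per day. CUBN, which fell, and the uncalled members of that list are not shown. TEAD4 is between 6.66 and 20.7 CPM at the later days, GCM1 and HAND1 stay under 1 CPM, and AHSG is at 0 in all day 6 libraries.

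Epiblast genes, which mark the embryo proper, were at 0, low, or lower at day 19 than at day 6. Of 15 listed, 12 had a row, 8 had reads and 2 were tested; POU5F1, SOX2, LIN28B and ZFP42 were at 0 in every library. Both tested genes fell from day 6 to day 19, where 10.2% of all genes fell. TDGF1, a co-receptor of Nodal that other tissues also express, had 242 reads over the day 6 libraries, 2 at day 16 and 0 at day 19 (edgeR quasi-likelihood, Benjamini-Hochberg adjusted p = 0.00357 for day 19 against day 6). DNMT3B, a DNA methyltransferase gene, had 145, 143 and 54 reads over the libraries of days 6, 16 and 19. Its log2 fold change was 0.02 at day 16 against day 6 (adjusted p = 0.985 in the same edgeR fit). At day 19 against day 6 it fell by 1.37 on the log2 scale (SE 0.33, adjusted p = 0.017). Its call did not survive leaving out day 6 replicate 1, or replicate 2 or 3 of day 19 (adjusted p up to 0.0579).

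Relatives of the 4 classes outside them served as a comparison. Of 15 genes with Kunitz domains, 10 were in the table and 9 were tested; TFPI2, an inhibitor that placental trophoblast also makes, was the 1 of 9 that rose, against 12.7% of all genes tested, 2.93-fold at day 19 against day 6 (edgeR quasi-likelihood, Benjamini-Hochberg adjusted p = 0.00503), and in edgeR none passed at day 16 against day 6 (0 at an unadjusted p under 0.05, 0 in DESeq2) or at day 19 against day 16 (1 and 1). The median log2 fold change of the 9 was -0.01 at day 19 against day 6. Among the relatives tested, COL6A3, a collagen chain, had the highest level. Of 12 aspartic proteases, 7 were in the table and 4 tested, and 1 of the 4, BACE1, against 10.2% of all genes, fell by 0.68 on the log2 scale at day 19 against day 6 (SE 0.18, edgeR adjusted p = 0.0227; lost with a replicate block at 0.058 and when day 6 replicate 2 or 3, or replicate 2 of day 19, was left out, up to 0.0988). Of 8 genes of the prolactin and growth hormone system, 3 were in the table and 2 tested, and neither passed in edgeR or DESeq2 in any comparison; at an unadjusted p under 0.05 there were 1, 0 and 2 at day 16 against day 6, day 19 against day 16 and day 19 against day 6. PRLR, the prolactin receptor, stood at 2.04 to 7.3 CPM at day 6 and at 26.5 to 31.0 CPM at day 16. At day 19 it stood at 79.3 CPM in replicate 1 and at 9.08 and 7.5 CPM in replicates 2 and 3. The 4 placental lactogen rows had 5 reads in all. Of 10 interferon relatives, 4 were in the table and 0 tested; IFNE, an epithelial interferon, led with 32 reads.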

How the data were processed

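Goat uterine RNA was sequenced on an Ion Proton after poly(A) selection, per the labels. The table the authors deposited holds raw read counts per gene as whole numbers. Not given in the sources used here: the aligner, build, strand and treatment of reads that match several copies. Rows were chosen by their description and summed per class as raw counts, with exact Poisson or binomial (Clopper-Pearson) 95% intervals (SciPy 1.17.1). No library pair agreed within sampling noise. The count test was that of edgeR 4.0.16 with R 4.3.3 (TMM, filterByExpr, robust quasi-likelihood, all 9 libraries, day as the only term), and genes with a Benjamini-Hochberg adjusted p under 0.05 were called. The standard error (SE) was taken from the F statistic, as absolute log2 fold change over its square root. The script was tested on simulated counts. DESeq2 1.42.0 and other settings served as alternatives. Members with a call, past the filter or with at least 20 reads are described singly, other members by class. From the 10 lists, called genes are named, and genes of highest level for some lists only. Members and lists were chosen with earlier results of these data known, and PGF (here placental growth factor) and PI3 (no Kunitz domain) were dropped from their lists. A listed gene in each of 2 further lists is not reported here and is left out of their counts. The Y chromosome list had 0 of 12 symbols in the table and gives no result. The 3 interferon response genes listed, ISG15, MX1 and RSAD2, all rose at days 16 and 19 against day 6. In these comparisons 5.12% and 12.7% of all genes tested rose. MX1 was 39.5-fold and 77.5-fold higher (edgeR quasi-likelihood, Benjamini-Hochberg adjusted p = 0.000211 and 8.54e-05), and RSAD2 166-fold and 102-fold (0.000601 and 0.000565). At day 19 against day 16 none passed in edgeR (1 in DESeq2), with log2 fold changes of 1.26, 0.97 and -0.7 in that order of genes. No sequences are printed.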

Additional observations from a re-analysis of the deposited data

How the results depend on the processing

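The number of members called at day 16 against day 6 was 1, 0 with the replicate number as a block, 2 with DESeq2 and 0 to 1 when 1 library was left out. At day 19 against day 16 it was 0, 1 with DESeq2 and 0 to 2 when 1 library was left out, with 2 only without day 19 replicate 1. At day 19 against day 6 it was 2, and 1 with a minimum of 1 CPM in 6 or more libraries, which was chosen after seeing the data and leaves 1 member to test. The other settings (RLE scaling, no low-count filter, a minimum of 1 CPM in 3 or more libraries, no robust estimation, only the libraries of the days compared) gave the same numbers of members called. No log2 fold change of the 2 tested members changed sign. The class means per day moved by less than 1 SD under TMM scaling and with mRNA rows only. Leaving out 1 of 3 libraries cannot move a mean by a full SD, but it changed the order of days: the prolactin-related mean of day 19 went from 1.34 to 0.0471 CPM without replicate 1, below day 6 (0.309) and day 16 (0.167), and the glycoprotein mean of day 16 from 0.684 to 0.0574 CPM without replicate 3, below day 6 (0.171). Replicate numbers did not pair the libraries, with correlations of -0.164 to 0.153 between same-numbered libraries. Over all genes, the block gave 1100, 0 and 2900 calls against 1427, 193 and 3684. At day 16 against day 6, DESeq2 called 2235 genes and the fit without day 19 replicate 1 called 3343; at day 19 against day 16, they called 1680 and 7331. Causes were not tested. Depth limits the 58 rows at 0 and the division of reads among copies.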
